A study of Mus musculus with 26 samples.

Results

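The replication-dependent core histone genes of the mouse were followed in MII oocytes and 1-cell embryos. The members were all protein-coding genes in the count table whose GENCODE vM21 symbol names an H2A, H2B, H3 or H4 gene of the families Hist1 to Hist4. The rule gave 61 genes of the 55401 in the table, made up of 18 H2A, 18 H2B, 12 H3 and 13 H4 genes. Linker histone genes of the Hist1h1 type and replacement variants under other symbols were not members. In the GRCm38 build, 48 of the 61 lie in the Hist1 cluster on chromosome 13 and 10 in the Hist2 cluster on chromosome 3. Of the others, 2 belong to Hist3 on chromosome 11, and Hist4h4 stands alone on chromosome 6.

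Core histones form the protein spool around which DNA winds, with H3 and H4 at its centre and pairs of H2A and H2B on either side. The genes named here are transcribed mainly in S phase, have no introns in their classical form, and give the only known animal mRNAs that end without a poly(A) tail. Their mRNAs end just after a short stem-loop that is bound by the stem-loop binding protein Slbp and cut with the help of the U7 small nuclear RNP. An egg stores histone protein and histone mRNA, which package the sperm genome and the first replicated DNA of the 1-cell embryo.

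The libraries fall into 5 groups. In the first series of titles, 7 libraries came from 1-cell embryos treated with a thiazolidinone compound that keeps Max from binding c-Myc, a growth-promoting transcription factor, and 7 from control embryos without it. The compound is called the c-Myc inhibitor here. The treatment protocol also mentions another c-Myc inhibitor as an alternative, so the identity of the compound rests on the labels of the libraries. In the second series, 4 libraries came from 1-cell embryos treated with alpha-amanitin, a toxin that blocks RNA polymerase II, 4 from control embryos without it and 4 from untreated MII oocytes, eggs halted at the second meiotic metaphase. All embryos were of the strain label B6D2F1xB6D2F1 (F2), produced by in vitro fertilisation of eggs from superovulated B6D2F1 females 8 weeks old, and carry an age label of 10 h. The c-Myc inhibitor was given 2 h after sperm and eggs were mixed, for 10 h, at a dose not given in the sources used here. Alpha-amanitin was given 1 h after mixing, at 100 µg/ml, also for 10 h. The MII oocytes carry the strain label B6D2F1, an age label of 0 h and the same female age of 8 weeks. The labels name no donors and do not say outright how many cells each library holds, so p-values measure only the spread between these libraries, which may be technical.

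Library totals ran from 20566278 to 27266040 counts in the first series and from 5371602 to 31540627 in the second, where alpha-amanitin replicate 3 was the shallowest. A count of 0 therefore allows up to 0.0951 to 0.558 CPM (a gene's count relative to its library's total) depending on the library, an upper limit of 3 counts that covers counting error only. Alpha-amanitin replicate 3 stood apart, with 11 members at 1 CPM or more against 19 to 31 in the other libraries, and the alpha-amanitin fold changes are given with and without it. Of 12 oocyte and early embryo markers, each was counted in every group. Among 16 cumulus and granulosa cell markers, which summed to between 10.8 and 55.0 CPM per library, Areg and Ereg were at 0 in all libraries. Others were counted in every group, with group means of 11.2 to 17.1 CPM for Cyp19a1 and 3.47 to 12.2 CPM for Kitl. Among 12 sperm and spermatid transcripts, Tnp1, Tnp2, Gapdhs and Smcp were at 0 throughout. Prm2, at group means of 5.77 to 11.2 CPM, and Odf2, at 217 to 423 CPM, were counted in every group, MII oocytes included.

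The 3′ stem-loops of 6 of the more abundant members are shown because they carry the processing signal that sets these mRNAs apart. They were read from GENCODE vM21 transcripts, 5′ to 3′ and in DNA letters, and capitals mark the stem-loop of 16 bases with 5 bases on each side.
Hist1h2bk: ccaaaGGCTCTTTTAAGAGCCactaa
Hist1h2bj: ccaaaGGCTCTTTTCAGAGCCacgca
Hist1h3e: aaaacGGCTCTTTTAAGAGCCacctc
Hist1h3f: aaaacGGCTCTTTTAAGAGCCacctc
Hist1h4c: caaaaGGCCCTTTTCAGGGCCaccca
Hist4h4: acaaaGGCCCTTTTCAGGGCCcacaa
Hist1h2bk, Hist1h3e and Hist1h3f shared the form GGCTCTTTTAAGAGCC, which was found in 5 members, and the H4 genes shown shared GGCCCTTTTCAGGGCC, found in 7. The H3 genes Hist1h3e and Hist1h3f were identical over all letters shown. The most common form, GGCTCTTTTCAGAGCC, was present in the annotated transcripts of 23 of 61 members (37.7%), against 28 of 21901 protein-coding genes (0.128%). By class, it was found in 10 of 18 H2A (55.6%), 8 of 18 H2B (44.4%), 5 of 12 H3 (41.7%) and 0 of 13 H4 genes. A looser pattern, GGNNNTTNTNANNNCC, which contains the exact form, was found in 42 members (68.9%) and in 5.59% of protein-coding genes, and it held 12 of 13 H4 genes (92.3%). No match lay in the annotated transcripts of Hist1h2aa, Hist1h2ba and Hist1h2ah, whose models of 390, 384 and 405 bases are short, and a transcript model that stops before the loop would also give no match.

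The promoter windows of Hist1h2ba and Hist1h3e, the 2 members called between groups below, are shown from RefSeq (GRCm38.p6), from 250 bases before to 50 bases after the start of each gene. Capitals mark matches on either strand to the CCAAT box (CCAAT), to the TATA box (TATAAA), to the octamer of classical H2B promoters (ATTTGCAT) and to the E-box that Myc and Max can bind (CACGTG). Hist1h2ba lies on the minus strand at chr13:23934107-23934406 and Hist1h3e on the minus strand at chr13:23562336-23562635.
Hist1h2ba promoter: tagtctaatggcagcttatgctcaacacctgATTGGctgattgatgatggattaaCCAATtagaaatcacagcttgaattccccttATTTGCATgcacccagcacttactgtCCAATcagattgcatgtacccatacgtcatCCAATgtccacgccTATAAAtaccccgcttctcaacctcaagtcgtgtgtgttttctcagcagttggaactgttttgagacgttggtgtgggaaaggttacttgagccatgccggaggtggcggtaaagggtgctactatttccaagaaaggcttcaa
Hist1h3e promoter: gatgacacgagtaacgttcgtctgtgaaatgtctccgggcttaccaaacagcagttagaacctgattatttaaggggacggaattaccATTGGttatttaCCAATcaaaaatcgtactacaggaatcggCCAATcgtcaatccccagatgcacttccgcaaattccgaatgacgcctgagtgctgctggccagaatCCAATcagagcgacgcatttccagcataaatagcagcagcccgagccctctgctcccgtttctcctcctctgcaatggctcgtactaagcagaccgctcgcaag
Each of these windows held 4 CCAAT motifs, and the Hist1h2ba window also held TATAAA and ATTTGCAT. A window was found for 55 of the 61 members, and CCAAT was present in 46 of them (83.6%), against 37.9% of 27025 RefSeq promoters of the same length. CCAAT was present in all 17 H2A, 16 H2B and 10 H3 windows but in only 3 of 12 H4 windows (25.0%). Windows of H2A and H2B genes that start back to back can overlap, as those of Hist1h2aa and Hist1h2ba do. The same motif can then be counted for both genes, so these windows are not independent. TATAAA was present in 31 windows (56.4%, against 14.2% of all promoters) and ATTTGCAT in 13 (23.6%, against 1.75%). The windows with ATTTGCAT were 7 of 17 H2A and 6 of 16 H2B windows. CACGTG was in 0 of 55 windows, against 7.24% of all promoters, which says only that these letters are not in these windows. Motif matches are descriptions of sequence, and binding was not measured.

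Core histone genes gave a small part of the RNA, between 0.0316% and 0.0799% of the counts of a library (mean 0.0634%). At least 1 count was present in some library for 57 of 61 members, whereas Hist1h2br, Hist2h2aa1, Hist2h3c1 and Hist2h2be had none. The mean over the 26 libraries was 10 CPM or more for 15 members, from 1 to 10 CPM for 16 and below 1 CPM for 30. The 15 abundant members were 3 H2A, 5 H2B, 2 H3 and 5 H4 genes. Of the summed CPM of all members, H2B genes held 32.1%, H4 genes 30.4%, H3 genes 19.7% and H2A genes 17.8%. The Hist1 cluster held 86.2%, Hist4h4 alone 11.0%, the Hist2 cluster 1.77% and the Hist3 genes 0.973%. Counts were found in every library for 12 members, and 15 members had at least 50% of their summed CPM in 1 library.

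**Figure D1:**
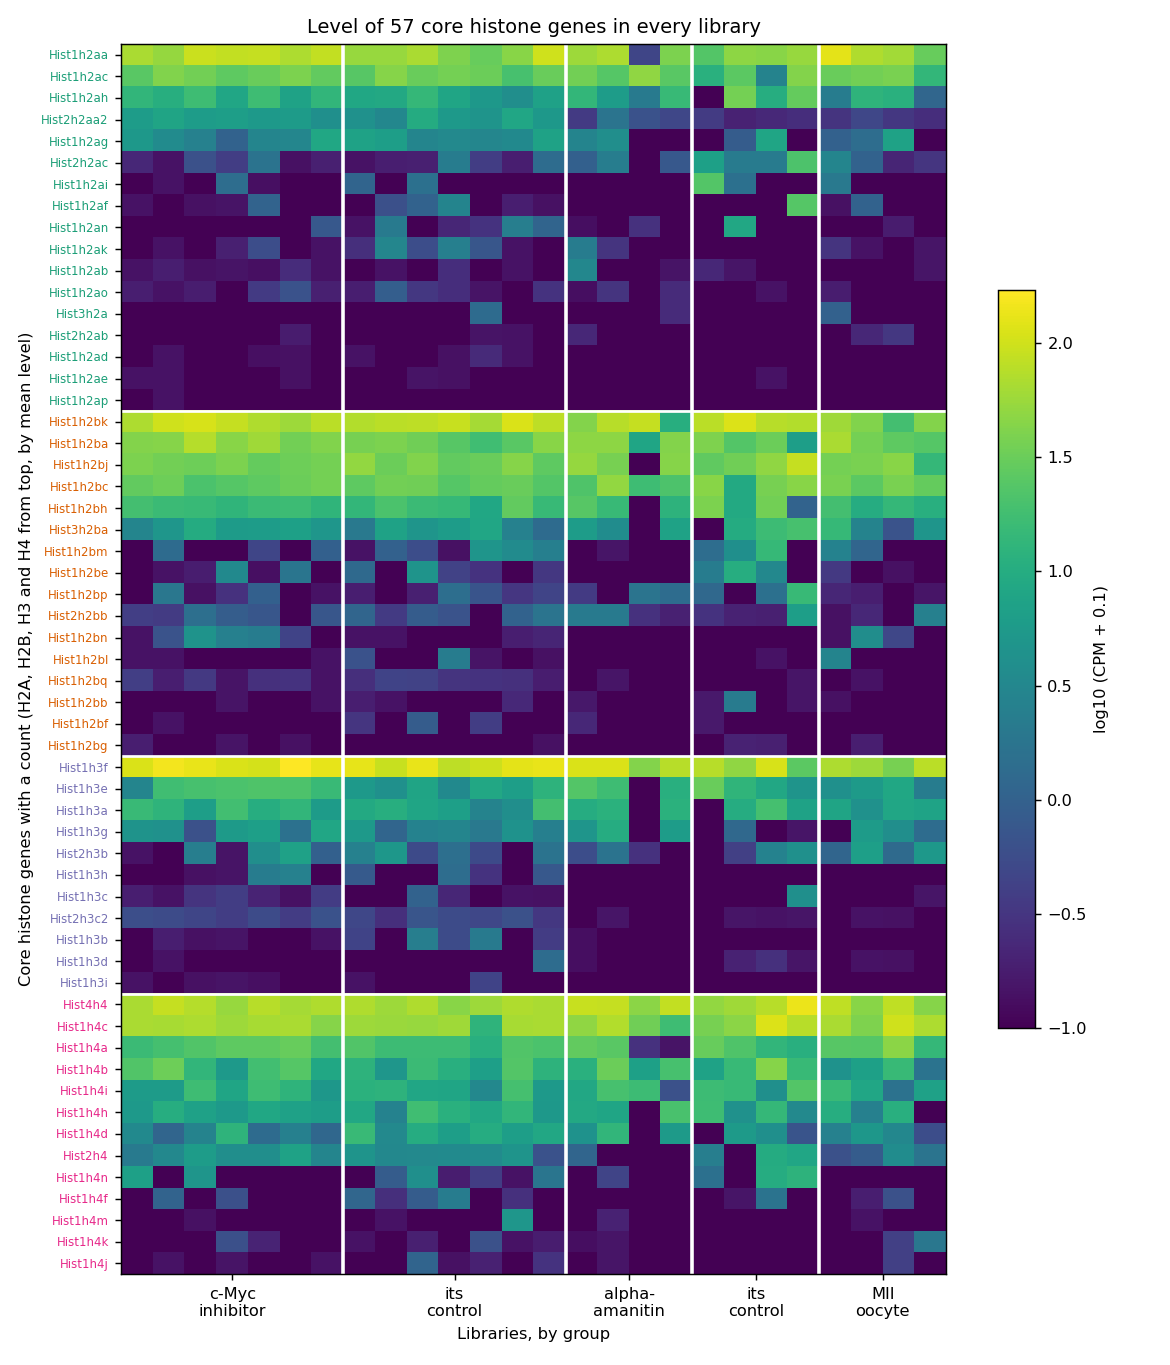
Level of the 57 core histone genes with a count (rows, from H2A at the top to H4 at the bottom) in each of the 26 libraries (columns, by group), as colour on the scale log10(CPM + 0.1). A limited set of genes in each class is bright in nearly all libraries, the remainder are dark or bright in single libraries, and alpha-amanitin replicate 3 has the fewest members at 1 CPM or more (11).

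Per kb of exon, the scale used here to compare genes, the testis-type H2A gene Hist1h2aa was the most abundant member, at a mean of 153 CPM per kb over the 26 libraries. Hist1h2bk, an H2B gene, followed at 151, then the testis-type H2B gene Hist1h2ba at 96.6 and the H2B gene Hist1h2bj at 80.0 CPM per kb. Hist1h2aa (chr13:23934462-23934851, plus strand) and Hist1h2ba (chr13:23933773-23934156, minus strand) encode TH2A and TH2B, variants known from mouse spermatogenic cells and also stored in the egg. The leading H3 gene was Hist1h3f at 77.9 CPM per kb, ahead of Hist1h3a at 17.0 and Hist1h3e at 13.6. Among H4 genes Hist1h4c had 71.4, Hist1h4b 37.6, Hist1h4a 37.4 and Hist4h4 24.4 CPM per kb. After Hist1h2aa, the H2A genes Hist1h2ah and Hist1h2ac had 26.6 and 12.0 CPM per kb. This order depends on the annotated lengths, which differ widely. The transcript model of Hist1h2aa has 390 bases and no stem-loop match. Those of Hist4h4, Hist1h2ac and Hist1h4c have 2863, 2482 and 820 bases, of which 2445, 2010 and 454 lie after the stem-loop. An order by length up to the stem-loop was not tested.

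The leading gene differed between groups, and the libraries of Hist1h2aa and Hist1h2bk overlapped on this scale in each group but the alpha-amanitin controls, where all Hist1h2bk values were the higher. Hist1h2aa led in c-Myc inhibitor embryos at 198 CPM per kb and in MII oocytes at 184 CPM per kb. Hist1h2bk led in the c-Myc inhibitor controls at 174, in alpha-amanitin embryos at 115 and in the alpha-amanitin controls at 179 CPM per kb. The lead in alpha-amanitin embryos came with replicate 3, and without it Hist1h2aa had 142 and Hist1h2bk 91.0 CPM per kb (n = 3). In MII oocytes Hist1h2bk had 84.4 CPM per kb, next to 98.9 for Hist1h2ba, 83.8 for Hist1h4c and 71.3 for Hist1h2bj. Over the 61 members, the median Spearman correlation of 2 libraries of a group was 0.850 in c-Myc inhibitor embryos and 0.832 in their controls. It was 0.736 in alpha-amanitin embryos (0.840 without replicate 3), 0.698 in their controls and 0.790 in MII oocytes. These are correlations across genes within libraries, and genes are not independent replicates.

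Levels of single members depend on how reads were shared between near-identical copies, and how the authors counted reads with several matches is unknown here. As a measure of this, each member's longest annotated transcript was split into stretches of 50 bases. The share found in no other annotated gene was counted, where genes that overlap the member's own locus were set aside. The median share was 61.8% for the 15 members at 10 CPM or more (range 9.27% to 97.7%), 52.3% for the 16 between 1 and 10 CPM (0% to 99.0%) and 38.0% for the 30 below 1 CPM (2.75% to 100%). Hist1h2aa was almost fully distinct at 97.7%, as were Hist4h4 at 91.9% and Hist1h4c at 80.4%. Hist1h2bk was at 25.8% and shared 66.5% of its stretches with Hist1h2bq, and Hist1h2ah was at 9.27%. Hist1h3e was at 26.6% and shared 63.2% of its stretches with Hist1h3f. Low uniqueness did not always go with low counts: Hist2h2be was 100% distinct and had no count, whereas Hist2h2aa2 had counts at 0%. Another annotated gene overlaps 23 members, on the same strand for 6 and on the other strand for 21. Without a stated strand setting, reads of Hist1h2aa cannot be told apart from those of Gm44344, which overlaps it on the other strand.

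**Figure D2:**
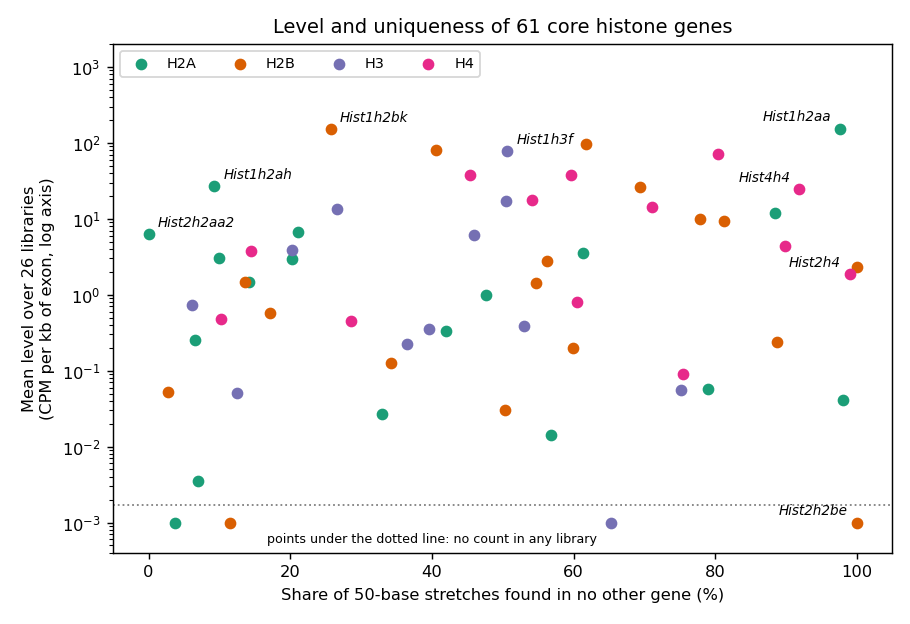
Mean level over 26 libraries (CPM per kb of exon, log axis) of the 61 core histone genes against the share of their stretches of 50 bases found in no other gene (%), coloured by class. Genes that overlap a member's own locus were set aside for this share. Members spread over the whole range of uniqueness at each level, and points under the dotted line are the 4 members without a count.

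Under the c-Myc inhibitor, 2 core histone genes rose, the H3 gene Hist1h3e and the testis-type H2B gene Hist1h2ba, and none fell. Both calls came from edgeR's quasi-likelihood test over 13003 genes with Benjamini-Hochberg adjustment at a threshold of 0.05, in which 27 of 61 members passed the filter on low counts. Of all genes tested, 6.82% were called higher and 4.08% lower in this comparison, so 2 of 27 is close to the background. The other abundant members did not pass, and for Hist1h2bk, Hist1h2bj, Hist1h3f, Hist1h4c and Hist4h4 the 95% interval of the log2 difference lay between -0.37 and 0.70. In these whole-cell libraries, fewer cells and less RNA per cell cannot be told apart, and a level is a share of each library's counts.

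Hist1h3e (ENSMUSG00000069273, chr13:23561534-23562369, minus strand) had 2.86, 19.6 and 22.2 CPM as the lowest, median and highest of 7 c-Myc inhibitor libraries, against 3.34, 6.36 and 12.2 CPM in the 7 controls. The low treated value came from replicate 1, and the other 6 treated libraries, from 15.2 to 22.2 CPM, lay above all controls. The means were 17.0 ± 6.66 and 6.81 ± 3.03 CPM (SD, n = 7 each), with a log2 fold change of 1.34 (SE 0.353, 95% interval 0.61 to 2.07, edgeR adjusted p = 0.0142). The call was kept in all 14 fits that left out 1 library, with adjusted p from 0.000663 to 0.0344. It was lost in 1 fit of all 5 groups (adjusted p = 0.41) and with the replicate number as a block (adjusted p = 0.0829). The block fit left out treated replicate 3 and control replicate 6, whose numbers the other group lacks. Hist1h3f, which shares most of the sequence of Hist1h3e and its stem-loop, had 105, 131 and 170 CPM under the c-Myc inhibitor, against 82.2, 127 and 135 CPM in the controls. The ranges overlapped between 105 and 135 CPM, and the log2 fold change of 0.22 (SE 0.130, adjusted p = 0.352) did not pass. How reads shared by Hist1h3e and Hist1h3f were assigned was not tested.

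Hist1h2ba (ENSMUSG00000050799) had 34.5, 44.3 and 74.3 CPM under the c-Myc inhibitor, against 17.5, 33.5 and 45.0 CPM in the controls. The ranges overlapped between 34.5 and 45.0 CPM. The means were 48.8 ± 13.4 and 31.7 ± 9.59 CPM (SD, n = 7 each), with a log2 fold change of 0.65 (SE 0.192, 95% interval 0.25 to 1.04, edgeR adjusted p = 0.0294). The log2 fold change lay between 0.51 and 0.74 in the 14 fits without 1 library, while the call was lost in 5 of them. Its adjusted p was 0.0898 without treated replicate 3, 0.0695 without treated replicate 5, and 0.0619, 0.0587 and 0.0621 without control replicates 5, 6 and 7. The call was also lost in 1 fit of all 5 groups (log2 fold change 0.63, adjusted p = 0.591) and with the replicate block (log2 fold change 0.42, adjusted p = 0.192). The block fit also left out treated replicate 3 and control replicate 6, and the part of the block alone was not tested.

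Hist1h2aa (ENSMUSG00000060081), the divergent neighbour of Hist1h2ba, had 52.2, 85.6 and 93.8 CPM under the c-Myc inhibitor, against 30.0, 53.6 and 98.1 CPM in the controls. The highest of the 14 libraries was a control. Its log2 fold change of 0.50 (SE 0.186, 95% interval 0.12 to 0.88) missed the threshold (adjusted p = 0.0915), and it was called when no filter was applied. The class sums set these values in context. The H2A genes summed to 133 ± 15.2 CPM under the c-Myc inhibitor and 109 ± 26.5 CPM in the controls, and the H3 genes to 167 ± 26.3 and 135 ± 27.6 CPM (SD, n = 7 each). For H2B genes the sums were 219 ± 27.2 and 206 ± 25.9 CPM, and for H4 genes 199 ± 25.4 and 179 ± 38.0 CPM. For each class the ranges of the groups overlapped.

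The remaining named members were not called under the c-Myc inhibitor. Hist1h2bk (ENSMUSG00000062727, chr13:22035870-22036345, plus strand), the most abundant canonical H2B gene per kb, had 57.7, 77.9 and 108 CPM in treated libraries, against 62.3, 81.7 and 110 CPM in controls. Its treated and control libraries covered almost the same range, with a log2 difference of -0.00 and a 95% interval of -0.30 to 0.29. Hist1h2bj had 29.7, 34.7 and 39.7 CPM in treated libraries, against 26.8, 32.1 and 51.1 CPM in controls (log2 -0.05, 95% interval -0.37 to 0.28). The treated values of Hist1h2bj lay wholly within the control range. Hist1h4c (ENSMUSG00000060678, chr13:23697635-23698454, minus strand) had 44.0, 65.1 and 68.4 CPM in treated libraries, against 12.4, 57.4 and 65.8 CPM in controls (log2 0.25, adjusted p = 0.606). Control replicate 6 was far below the other controls for Hist1h4c, which had 54.2 to 65.8 CPM.

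Hist4h4 (ENSMUSG00000096010, chr6:136801553-136804415, minus strand), the only member outside the multigene clusters, had 53.5, 70.8 and 87.7 CPM under the c-Myc inhibitor, against 45.9, 66.4 and 70.3 CPM in the controls. Its log2 difference was 0.19 (95% interval -0.07 to 0.45, adjusted p = 0.429). Hist1h4a had 16.1, 22.3 and 30.0 CPM in treated libraries, against 10.8, 16.5 and 22.8 CPM in controls (log2 0.37, adjusted p = 0.304), and Hist1h4b was at 0.57 on the log2 scale (adjusted p = 0.397). For Hist4h4 and Hist1h4a the ranges of the groups overlapped. Hist1h2ah was at 0.66 (adjusted p = 0.184), Hist1h3a at 0.50 (adjusted p = 0.484), Hist3h2ba at 0.36 (adjusted p = 0.727) and Hist1h2ac at 0.08 (adjusted p = 0.866). Hist3h2a had no count in any treated library and 26 reads in 1 control. The member Hist1h4d, an H4 gene named after its values were seen, had 1.02, 2.47 and 12.5 CPM in treated libraries, against 3.19, 8.67 and 15.2 CPM in controls (log2 -1.29, SE 0.509, adjusted p = 0.117).

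**Figure D3:**
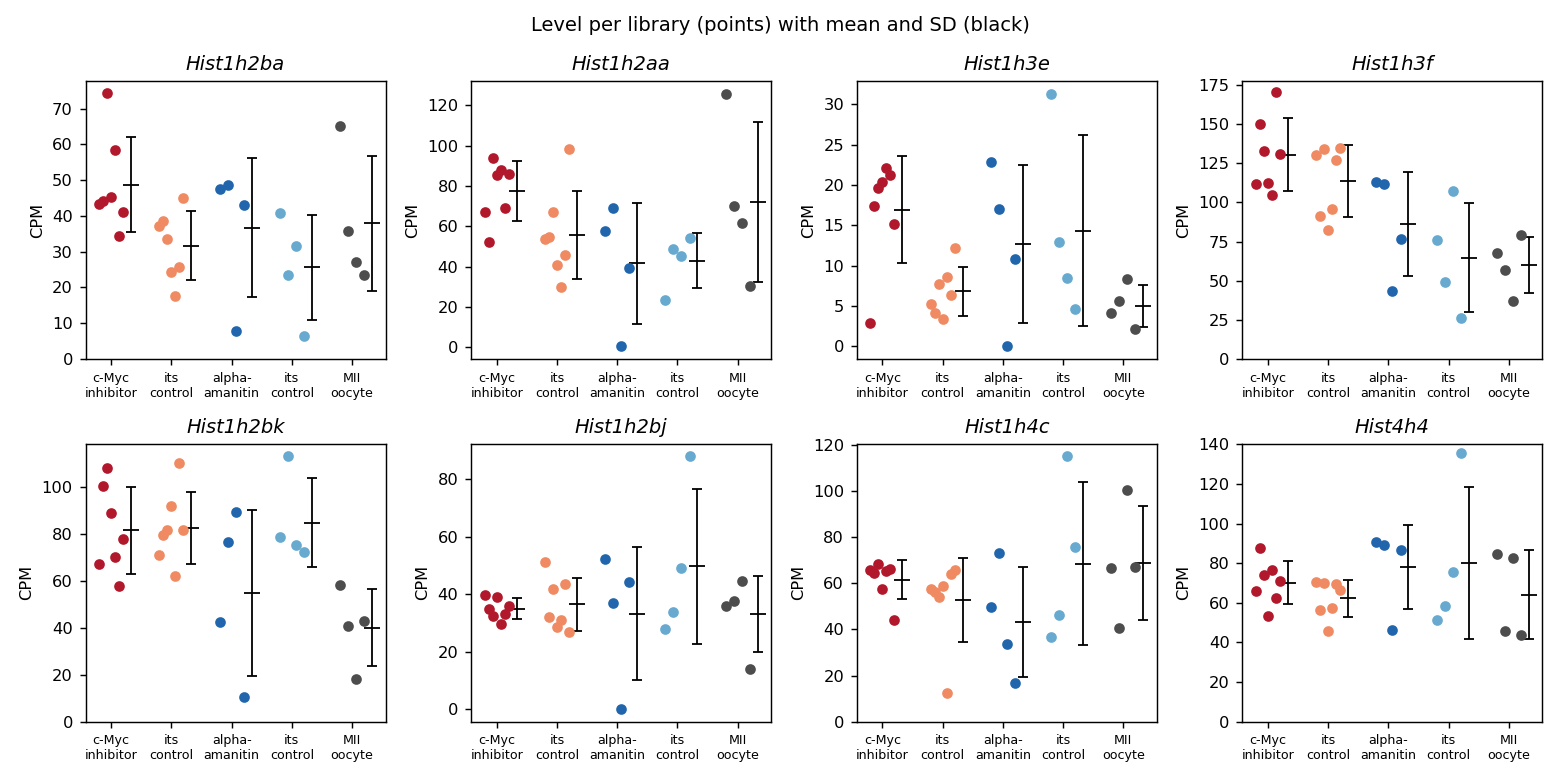
CPM in every library (points) for Hist1h2ba, Hist1h2aa, Hist1h3e, Hist1h3f, Hist1h2bk, Hist1h2bj, Hist1h4c and Hist4h4, with the mean and SD of each group. The groups run from c-Myc inhibitor embryos and their controls (n = 7 each) to alpha-amanitin embryos, their controls and MII oocytes (n = 4 each). The alpha-amanitin controls lie above the MII oocytes for Hist1h2bk, and the share of all genes that separate so was not computed.

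Over the 27 members that passed, 19 were above 0 and 8 below on the log2 scale, with a median of 0.19, against -0.00 over all genes tested. Members with an unadjusted p under 0.05 made up 18.5% (5 of 27, 4 of them higher), against 2862 of all 13003 genes. The medians by class were 0.42 for H3 (6 genes above 0 and 0 below), 0.22 for H4 (6 and 2), 0.08 for H2A (4 and 1) and -0.02 for H2B (3 and 5). DESeq2 also called 2 members higher and 0 lower, against 8.11% and 6.61% of all genes. With no filter 4 were called higher and 0 lower, against 3.2% and 1.96% of 27485 genes, the others being Hist1h2aa and Hist1h2bn. The sum of the oocyte markers also differed in this comparison. They summed to 8964 ± 796 CPM in treated embryos (8178 to 9987) and 6279 ± 905 CPM in controls (5295 to 7607), with 6 of 12 called higher. The difference in the sum was mostly Gdf9, at 1944 against 415 CPM, and H1foo, at 1740 against 557 CPM. The means of Bmp15, Nlrp5 and Dppa3 were lower in treated embryos. The part of these markers in the histone values was not tested. The sperm list summed to 338 to 557 CPM in treated embryos and 267 to 368 CPM in controls, mostly Odf2 at 423 against 322 CPM, and its part was likewise not tested.

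**Figure D4:**
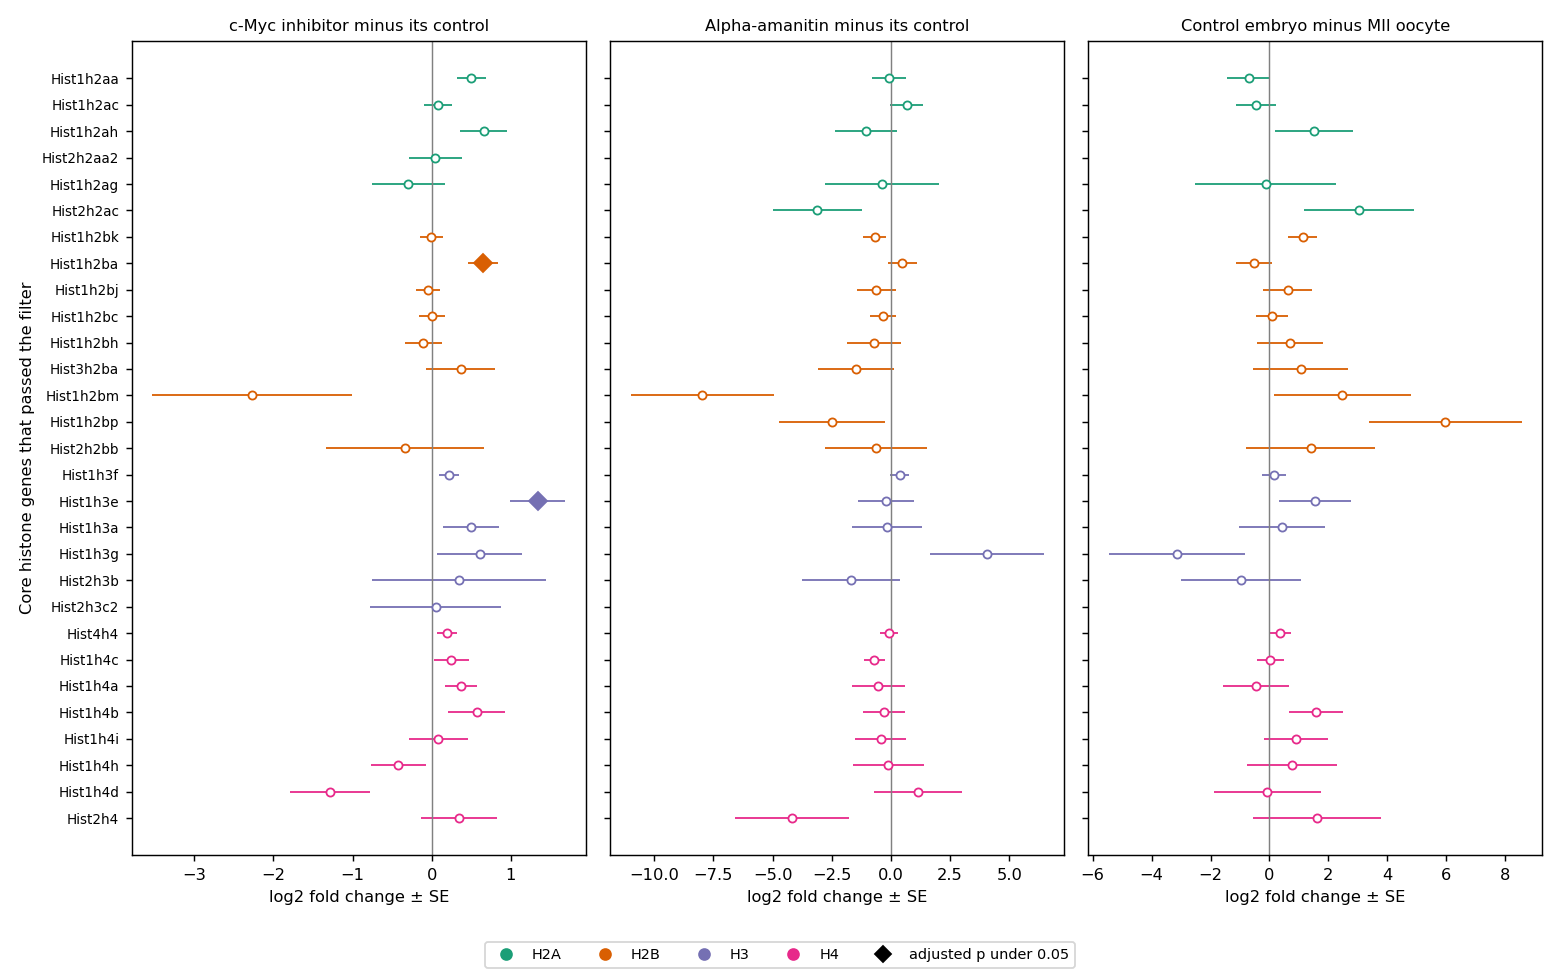
Log2 fold change ± SE (edgeR) of core histone genes that passed the filter, 27 per panel, for c-Myc inhibitor embryos minus controls, alpha-amanitin embryos minus controls and alpha-amanitin controls minus MII oocytes, coloured by class. Filled diamonds are the 2 called genes, Hist1h3e and Hist1h2ba in the first panel, and the horizontal ranges of the panels differ.

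Under alpha-amanitin, no core histone gene was called against the controls of the same series. In this fit 27 of 61 members passed the filter, 0 were called higher and 0 lower, while 0.0228% of 13133 genes were called higher and 0.00761% lower. DESeq2 also called 0 members, against 0.693% of all genes higher and 0.244% lower. An unadjusted p under 0.05 was reached by 1 member, Hist1h2bm, an H2B gene named after its values were seen, against 7.51% of all genes. Its values were 0, 0.0512, 0 and 0 CPM in alpha-amanitin embryos, against 1.32, 3.92, 14.4 and 0 CPM in the controls (adjusted p = 0.524). The spread between libraries was wide in this series, with a biological coefficient of variation of 1.12 over 12 libraries, against 0.555 over the 14 libraries of the first.

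Hist1h2bk had 42.5, 76.8, 89.4 and 10.6 CPM in alpha-amanitin embryos, against 78.7, 114, 75.5 and 72.5 CPM in controls. The groups overlapped, although replicates 1 and 4 of the treated embryos lay below all controls. The log2 fold change was -0.68 (SE 0.491, 95% interval -1.71 to 0.34, adjusted p = 0.960). Hist1h2bj had 52.1, 36.8, 0 and 44.1 CPM in treated embryos, against 28.0, 33.7, 48.9 and 88.0 CPM in controls. Its value of 0 came from replicate 3, in which Hist1h2bh, Hist1h3a and Hist1h3e were also at 0. In this library a count of 0 allows up to 0.558 CPM, and the cause of these zeros was not tested.

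Hist1h4c had 49.6, 72.9, 33.7 and 16.7 CPM in alpha-amanitin embryos, against 36.6, 46.4, 115 and 75.6 CPM in controls (log2 -0.70, SE 0.453, adjusted p = 0.908). Hist4h4 had 90.5, 89.1, 46.4 and 86.4 CPM, against 51.3, 58.4, 75.8 and 136 CPM in controls (log2 -0.08, 95% interval -0.84 to 0.68). For both H4 genes the highest library was a control and the lowest a treated one. Hist1h3f had 113, 112, 43.4 and 76.4 CPM in alpha-amanitin embryos, against 75.9, 49.5, 107 and 26.1 CPM in controls (log2 0.37, 95% interval -0.49 to 1.23). Hist1h3e had 22.9, 17.0, 0 and 10.8 CPM, against 31.3, 13.0, 8.49 and 4.59 CPM in controls (log2 -0.22, 95% interval -2.71 to 2.27). Neither H3 gene separated the groups. Without replicate 3 of the treated embryos the log2 fold changes were 0.18 for Hist1h3e and 0.08 for Hist4h4, which were then above 0, 0.57 for Hist1h3f and -0.62 for Hist1h4c.

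The other named members gave values from -1.47 for Hist3h2ba to 0.66 for Hist1h2ac on the log2 scale under alpha-amanitin, none of them called. Hist1h4a varied widely within the treated group, with 28.1, 25.5, 0.186 and 0.049 CPM in alpha-amanitin embryos, against 30.5, 22.1, 13.2 and 10.8 CPM in controls (log2 -0.54, SE 1.12). Hist1h2ac had 35.3, 23.5, 49.9 and 25.6 CPM in treated embryos, against 11.2, 26.3, 2.69 and 42.2 CPM in controls (SE 0.678), with a wider range in the controls. Hist1h2ah was at -1.07, Hist1h4b at -0.28 and Hist1h3a at -0.17. Without replicate 3 of the treated embryos Hist1h3a was above 0, at 0.22, while Hist1h4a was at -0.15, Hist1h4b at -0.03, Hist1h2ah at -0.76, Hist3h2ba at -1.08 and Hist1h2ac at 0.39.

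Both testis-type genes were low in alpha-amanitin replicate 3. Hist1h2ba had 47.4, 48.6, 7.82 and 43.2 CPM in alpha-amanitin embryos, against 40.9, 23.4, 31.7 and 6.38 CPM in controls (log2 0.48, 95% interval -0.82 to 1.77). Hist1h2aa had 57.8, 69.0, 0.372 and 39.5 CPM, against 23.2, 48.6, 45.3 and 54.4 CPM in controls (log2 -0.08, 95% interval -1.61 to 1.44). Replicate 3 was the lowest treated library for both genes. Without it the log2 fold changes were 0.80 for Hist1h2ba, 0.31 for Hist1h2aa, -1.03 for Hist1h2bk (adjusted p = 0.532) and -0.22 for Hist1h2bj.

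Of the 27 members that passed in the contrast of alpha-amanitin with its controls, 5 were above 0 and 22 below, with a median of -0.43, against -0.01 over all genes. The class medians were -0.68 for H2B (1 above 0 and 8 below), -0.38 for H2A, -0.36 for H4 and -0.17 for H3. Without replicate 3 of the treated embryos 30 members passed, 11 above 0 and 19 below, the median was -0.27, and 0 were called. The class medians were then -0.68 for H2B (1 above 0 and 9 below), -0.38 for H2A, -0.15 for H4 and 0.22 for H3. The summed level of all members was 667, 753, 316 and 474 CPM in alpha-amanitin embryos, against 571, 579, 761 and 756 CPM in controls. The means were 552 ± 196 and 667 ± 106 CPM (SD, n = 4 each), a ratio of 0.829, and without replicate 3 the treated mean was 631 ± 143 CPM (n = 3). In the first series the sum was 718 ± 54.0 CPM in c-Myc inhibitor embryos and 629 ± 91.8 CPM in their controls (n = 7 each), a ratio of 1.14, with overlapping ranges of 647 to 799 and 465 to 708 CPM.

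**Figure D5:**
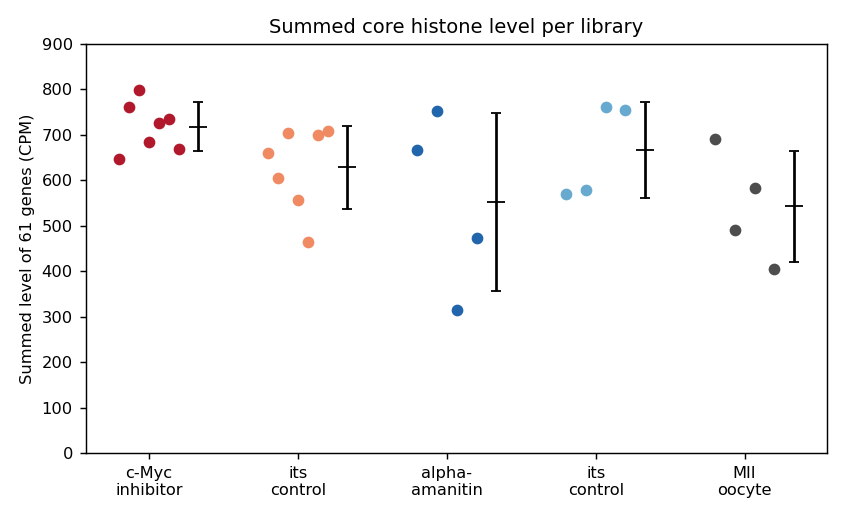
Summed level of the 61 core histone genes (CPM) in every library (points), with the mean and SD of each group. The sums were 718 ± 54.0 in c-Myc inhibitor embryos, 629 ± 91.8 in their controls, 552 ± 196 in alpha-amanitin embryos, 667 ± 106 in their controls and 543 ± 122 in MII oocytes, and neighbouring groups overlap.

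Between the MII oocyte and the alpha-amanitin control embryo, no core histone gene was called either. Of the 27 members that passed, 0 were called higher and 0 lower by edgeR and by DESeq2, against 1.11% and 1.78% of all 13133 genes by edgeR and 2.17% and 3.69% by DESeq2. Hist1h2bk had 78.7, 114, 75.5 and 72.5 CPM in control embryos, against 58.4, 40.9, 18.4 and 42.9 CPM in MII oocytes. All 4 embryo libraries thus lay above the highest oocyte library. The share of all genes whose groups separate in this way was not computed. The means were 85.0 ± 19.2 and 40.2 ± 16.5 CPM (SD, n = 4 each), with a log2 fold change of 1.13 (SE 0.494, 95% interval 0.09 to 2.16, unadjusted p = 0.0343, edgeR adjusted p = 0.281). The other member with an unadjusted p under 0.05 was Hist1h2bp (adjusted p = 0.277), named after its values were seen. It had 1.12, 0, 1.46 and 14.8 CPM in control embryos, against 0.122, 0.0866, 0 and 0.0538 CPM in oocytes. An unadjusted p under 0.05 was reached by 14.1% of all genes.

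Other members gave values on both sides of 0 in the contrast of control embryos with MII oocytes. Hist1h2aa had 23.2, 48.6, 45.3 and 54.4 CPM in control embryos, against 126, 70.1, 61.5 and 30.3 CPM in oocytes (log2 -0.70, adjusted p = 0.875). Hist1h2ba had 40.9, 23.4, 31.7 and 6.38 CPM, against 65.3, 35.9, 27.2 and 23.6 CPM in oocytes (log2 -0.53, adjusted p = 0.917). For both testis-type genes MII replicate 1 was the highest library. Hist1h4b was at 1.59 (adjusted p = 0.528), Hist1h3e at 1.54 (adjusted p = 0.769), Hist4h4 at 0.37, Hist1h3f at 0.15 and Hist1h4c at 0.03 on the log2 scale. Hist1h4c had 36.6, 46.4, 115 and 75.6 CPM in control embryos, against 66.4, 40.7, 101 and 67.2 CPM in oocytes, and the ranges overlapped almost fully.

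Over the members that passed between control embryos and oocytes, 19 were above 0 and 8 below, with a median of 0.63, against -0.03 over all genes. The class medians were 1.05 for H2B (8 above 0 and 1 below), 0.56 for H4, 0.15 for H3 and -0.13 for H2A. The H2B genes summed to 242 ± 21.2 CPM in control embryos and 166 ± 48.2 CPM in oocytes (SD, n = 4 each). The sum of all members was 571, 579, 761 and 756 CPM in control embryos, against 691, 492, 584 and 406 CPM in oocytes, a ratio of 1.23 with overlapping ranges. Hist1h2aa and Hist1h2ba were both below 0 on the log2 scale in this contrast. Without them the sums were 507 to 695 CPM in control embryos and 352 to 500 CPM in oocytes. These ranges did not overlap, but only narrowly, at 507 against 500 CPM. How often sums of other genes separate in this way was not computed. This contrast shares its control embryos with that of alpha-amanitin. In alpha-amanitin embryos against MII oocytes, 0 of 27 members were called higher and 0 lower by edgeR and by DESeq2 (0.442% and 1.27% of all genes by edgeR, 1.67% and 2.37% by DESeq2). The smallest adjusted p among the members was 0.506, 0 had an unadjusted p under 0.05 against 10.6% of all genes, and the median was 0.19, with 15 above 0 and 12 below. Without replicate 3 of the alpha-amanitin embryos 30 members passed, 18 above 0 and 12 below, with a median of 0.29. The oocyte markers summed to between 5661 and 8874 CPM in alpha-amanitin embryos, 5709 and 7398 CPM in their controls and 10682 and 11848 CPM in MII oocytes, and 6 of 12 were called lower in either kind of embryo than in oocytes. Their part in the histone values was not tested.

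No member was called for a difference between the effects of the inhibitors by edgeR. In 1 fit of the 22 embryo libraries, 38 of 61 members passed the filter, and the contrast of the c-Myc inhibitor effect minus the alpha-amanitin effect called 0 higher and 0 lower, against 0.678% and 0.367% of 15790 genes. Hist1h3e differed by 1.56 (SE 1.03, 95% interval -0.55 to 3.67, adjusted p = 0.483) and Hist1h2ba by 0.17 (SE 0.572, adjusted p = 0.952). Without alpha-amanitin replicate 3 the differences were 1.15 for Hist1h3e (adjusted p = 0.468) and -0.16 for Hist1h2ba (adjusted p = 0.948). With SEs of this size, responses of either gene that differ and that do not differ are both within the error. An unadjusted p under 0.05 was reached by 7 members, 18.4% of those that passed, against 17.3% of all genes. The smallest adjusted p was 0.0991, for the H2A gene Hist1h2ak, named after its values were seen, whose 4 alpha-amanitin controls were all at 0. DESeq2 called 2 members higher, Hist1h2ai and Hist2h4, both named after their values were seen, and 0 lower, against 2.62% and 3.98% of all genes. Hist1h2ai had 23.4 CPM in control replicate 1 of the alpha-amanitin series, 1.48 CPM in replicate 2 and 0 in the other 2 controls.

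Pairs of H2A and H2B genes that start back to back from a shared stretch of DNA were compared, since many core histone genes are laid out this way. There were 12 such pairs, with starts 176 to 306 bases apart. In 3 pairs both genes had a mean of 10 CPM or more: Hist1h2aa with Hist1h2ba, Hist1h2ac with Hist1h2bc and Hist1h2ah with Hist1h2bk. In 8 pairs both genes were below 2 CPM. Hist1h2ag and Hist1h2bj had the largest ratio among the pairs with an abundant member, at 6.67 CPM per kb for the H2A gene and 80.0 CPM per kb for the H2B gene. The H2B gene was the higher per kb in 6 of 12 pairs.

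Correlations across libraries were computed for the 3 abundant pairs within each group of the first series. In the 7 c-Myc inhibitor embryos Hist1h2aa and Hist1h2ba correlated with r = 0.600 (exact permutation p = 0.0885, adjusted p = 0.265) and rho = 0.571 (exact permutation p = 0.2, adjusted p = 0.6). In the 7 controls r was 0.868 (exact permutation p = 0.00397, adjusted p = 0.0238) and rho 0.893 (exact permutation p = 0.0123, adjusted p = 0.0738). Without the 2 libraries farthest from the median of Hist1h2aa, r was 0.820 in treated embryos and 0.666 in controls (n = 5). The p-values were two-sided and adjusted over 6 pairs and groups. For the other 2 pairs r lay between -0.232 and 0.259 (n = 7, exact permutation adjusted p = 0.7 for each). The genes of a pair share each library's total, and the 4 libraries per group of the second series were too few for a correlation.

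Of 39 listed genes that make and process histone mRNA, such as Slbp, Npat and the U7 snRNP proteins, 3 rose and 3 fell under the c-Myc inhibitor, with a list median of 0.03. These counts are near the background of 6.82% of all genes called higher and 4.08% called lower. Upf1, a helicase of nonsense-mediated decay that also acts in histone mRNA decay, had 567 ± 204 CPM in treated embryos and 247 ± 54.5 CPM in controls (SD, n = 7 each), with a log2 fold change of 1.21 (edgeR adjusted p = 8.97e-05). Lsm11, a protein of the U7 snRNP, rose by 0.65 (adjusted p = 0.0168), and Sympk, the scaffold of the cleavage complex, by 0.61 (adjusted p = 0.00118). Srrt, a cap-associated factor required for histone mRNA synthesis, fell by 0.55 (adjusted p = 0.00497). Slbp itself had 923 ± 104 CPM in treated embryos and 1107 ± 99.3 CPM in controls, a log2 fold change of -0.25 (adjusted p = 0.0480), a call lost in 10 of 14 fits without 1 library. The call of Larp7, of the 7SK RNP, at -0.27 (adjusted p = 0.0496) was lost in 13 of 14. In 1 fit of all 5 groups each of these calls but that of Upf1 was lost, and those of Slbp and Larp7 were also lost with no filter and with the replicate block.

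Among regulators of the list that were not called under the c-Myc inhibitor, Npat, the activator bound to the histone locus, was at -0.35 (adjusted p = 0.168). Casp8ap2, the processing factor FLASH, was at 0.03, the U7 snRNP protein Lsm10 at 0.30 and the stem-loop exonuclease Eri1 at -0.20. Of 32 histone chaperone genes, 2 rose and 1 fell, which is also near the background of 6.82% and 4.08%. Cabin1, of the HIRA complex, rose by 0.41 (adjusted p = 0.0110), and Chaf1a, the large subunit of CAF-1, by 0.28 (adjusted p = 0.0179), while Supt16, a subunit of FACT, fell by 0.30 (adjusted p = 0.00954). These 3 calls were lost in 1 fit of all 5 groups, and those of Cabin1 and Supt16 also with the replicate block. Nasp, a carrier of H3 and H4, was at -0.22 (adjusted p = 0.0541), and Npm2, the nucleoplasmin of the egg, at 0.15 (adjusted p = 0.139).

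Under alpha-amanitin 0 of the 39 processing genes and 0 of the 32 chaperones were called, with Slbp at -0.39 (adjusted p = 0.524). Of all genes, only 0.0228% were called higher and 0.00761% lower in this contrast. Between control embryos and MII oocytes, 2 processing genes were called higher and 2 lower, and 2 chaperones were called higher and 0 lower. Of all genes, 1.11% were called higher and 1.78% lower. Slbp had 1328 to 1408 CPM in embryos and 701 to 842 CPM in oocytes (n = 4 each), which differed by 0.84 on the log2 scale (edgeR adjusted p = 0.000708). Snrpf, a ring protein of the spliceosomal and U7 snRNPs, rose by 1.86 (adjusted p = 0.00316). Upf1 was lower in these embryos, at 162 against 599 CPM in oocytes (log2 -1.85, adjusted p = 1.51e-05), and Cpsf3, the endonuclease that cuts histone pre-mRNA, was at -1.34 (adjusted p = 0.0162), a call lost in 4 of 8 fits without 1 library and with no filter. Of the chaperones, Npm1 rose by 0.77 (adjusted p = 0.00831) and Nasp by 0.69 (adjusted p = 0.0196), the second call being lost in 7 of 8 such fits. In alpha-amanitin embryos against MII oocytes, Upf1 was at -1.96 (adjusted p = 8.84e-06) and Nasp at 0.80 (adjusted p = 0.00998), the only genes of either list called. There 0.442% of all genes were called higher and 1.27% lower. The difference of inhibitor effects called Upf1 higher by 1.33 (adjusted p = 0.0359, lost in 12 of 22 fits without 1 library) and Cpsf3 lower at -1.62 (adjusted p = 0.0213). Of the chaperones it called Cabin1 higher by 1.02 (adjusted p = 0.0220, lost in 1 of 22 such fits). These 3 calls were lost with the replicate block. For the difference of inhibitor effects, 0.678% of all genes were called higher and 0.367% lower.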

How the data were processed

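Libraries were prepared with a strand-preserving total RNA kit for very small inputs (SMARTer, Pico Input), per the labels' protocols. The deposited table holds raw counts, whole numbers that the authors made for 55401 Ensembl gene IDs in 26 libraries. The submitters' processing notes name cutadapt 1.7.1, STAR 2.5.0a and the build GRCm38. Not given in the sources used here are the counter, whether it counted by strand and which annotation it read. Symbols, coordinates and transcripts came from GENCODE vM21, and the 260 IDs without a symbol held 0.00563% of counts.

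Counts were tested in R 4.3.3 with edgeR 4.0.16 (quasi-likelihood F test, TMM scaling, filterByExpr with minimum count 10 and minimum total 15) and limma 3.58.1, fitted on all genes, with Benjamini-Hochberg adjustment at 0.05. The c-Myc inhibitor contrast used 14 libraries and 13003 genes, contrasts within the second series 12 libraries and 13133 genes, and the difference of inhibitor effects 22 libraries and 15790 genes. SE was the log2 fold change divided by the square root of F, and 95% intervals used the t distribution of the fit. CPM used raw library totals, and levels per kb used the union of exons. Alternatives were RLE scaling, DESeq2 1.42.0, no filter, a replicate block, 1 fit of all groups and leaving out each library. The block used only replicate numbers shared by the groups of a series, so c-Myc inhibitor replicate 3 and c-Myc inhibitor control replicate 6 were left out of it. The edgeR step was tested on simulated data with large changes and the same spread for every contrast. That test does not show the power for small changes or for the wider spread of the second series.

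The members, lists and tests were chosen with earlier results of these data known. Named were the 3 members of each class with the highest CPM per kb, called members, Hist1h2aa, Hist1h2ba, Hist3h2a, Hist3h2ba and Hist4h4, plus called genes and main regulators of the processing (39 of 42 listed genes measured) and chaperone lists (32 of 32).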

Additional observations from a re-analysis of the deposited data

Results flagged for a closer look

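In 78 sets of values in a group of 4 to 7 libraries (73 of a named member and 5 of the summed level of all members), 10 had 1 library far from the others by Dixon's criterion. Chance gives about 1 in 20 only for independent values with a normal spread. Sets that share a library are not independent. For Hist3h2a the other libraries of each flagged group were at 0, so any count met the criterion. The number flagged is therefore not compared with chance. In alpha-amanitin replicate 3, the shallowest library, Hist1h2ba was at 7.82 CPM while the other 3 had 43.2 to 48.6 CPM, Hist4h4 was at 46.4 CPM while the others had 86.4 to 90.5 CPM, and Hist1h3a was at 0 CPM while the others had 9.96 to 11.5 CPM. Hist1h2bk was at 114 CPM in alpha-amanitin control replicate 2, against 72.5 to 78.7 CPM in the other controls. Hist1h3a was at 4.24 CPM in MII replicate 2, against 7.42 to 8.07 CPM in the other oocytes. Hist1h3e was at 2.86 CPM in c-Myc inhibitor replicate 1, against 15.2 to 22.2 CPM in the other 6 treated libraries, and Hist1h3e was called higher under the inhibitor with and without that library. Hist1h4c was at 12.4 CPM in c-Myc inhibitor control replicate 6, against 54.2 to 65.8 CPM. Hist3h2a was at 0 except for 1.26 CPM in c-Myc inhibitor control replicate 6, 0.147 CPM in alpha-amanitin replicate 4 and 0.898 CPM in MII replicate 1, which were 26, 3 and 22 reads.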

How the results depend on the processing

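For the c-Myc inhibitor, the number of members called higher was 2 by edgeR, RLE scaling and DESeq2, 0 in 1 fit of all 5 groups, 4 with no filter, 0 with the replicate block and 1 to 2 when 1 library was left out. Over all genes, 887, 833 and 1054 of 13003 were called higher by edgeR, RLE scaling and DESeq2. The numbers were 266 of 16319 in 1 fit of all 5 groups and 879 of 27485 with no filter. With the replicate block 705 of 13103 genes were called higher, and 762 to 901 genes when 1 library was left out. The number of members called lower was 0, but 1 with the replicate block (Hist1h4d) and 0 to 1 when 1 library was left out (1 without treated replicate 4). Of all genes, 292 of 13103 were called lower with the block and 510 of 13312 without treated replicate 4. Between control embryos and MII oocytes 1 member was called higher in 1 fit of all 5 groups (Hist1h4n), against 572 of 16319 genes. In the difference of inhibitor effects 2 members were called higher by DESeq2, against 413 of 15790 genes. When 1 library was left out, edgeR called 0 to 1 members higher there. The 1 call came without alpha-amanitin replicate 1, against 147 of 16483 genes. Without Hist1h2aa and Hist1h2ba the summed level was 592 CPM in c-Myc inhibitor embryos and 541 CPM in their controls. No called value changed sign, whereas among 112 values that were not called, 92 of 1906 refits did. The replicate numbers did not pair the libraries: correlations of deviations between same-numbered libraries lay between -0.0367 and 0.0575, so the block shows only how counts of calls move. Over all genes alpha-amanitin called 3 higher and 1 lower, against 91 and 32 by DESeq2, 63 and 40 in 1 fit of all 5 groups and 74 and 15 with no filter. The cause of these shifts was not tested. The biological coefficient of variation of 1.12 in the second series limits what it can show, since even for Hist4h4 the 95% interval of the alpha-amanitin effect ran from -0.84 to 0.68.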

Other observations

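The levels of the Hist2 genes Hist2h2aa2, an H2A gene, and Hist2h3c2, an H3 gene, did not overlap between the series of libraries. How many of all genes separate the series in this way was not counted, so this is not shown to be particular to these members. Hist2h2aa2 had 3.02 to 9.75 CPM (median 5.69) in the 14 libraries of the first series, treated and control alike, and 0.102 to 1.64 CPM (median 0.242) in the 12 of the second. Over the same libraries Hist2h3c2 ranged between 0.173 and 0.618 CPM where Hist2h2aa2 was high, and between 0 and 0.0541 CPM where it was low. These values of Hist2h3c2 rest on 4 to 13 reads per library against 0 to 1. Control embryos, labelled 10 h and without inhibitor in both series, differed in the same way, with Hist2h2aa2 at 3.02 to 9.75 CPM in the c-Myc inhibitor controls (n = 7) and 0.102 to 0.264 CPM in the alpha-amanitin controls (n = 4). No test was made between series, and what else differed between them was not tested. None of the stretches of 50 bases of Hist2h2aa2 is unique to it.

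Some H2A genes had most of their summed CPM in 1 library. Hist1h2af had 23.8 CPM in alpha-amanitin control replicate 4 (78.7% of its sum) and at most 2.76 CPM elsewhere. Hist1h2ai had 23.4 CPM in alpha-amanitin control replicate 1 (76.3%) and at most 1.92 CPM elsewhere.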
